A study of Homo sapiens with 4 samples.

Results

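Interferon-stimulated genes other than the OAS family were followed across 4 expression arrays of NOMO-1, a monocytic cell line from a human acute myeloid leukaemia, in which ZFX was targeted by hairpin RNAs. The members are 43 genes of the interferon response, chosen by name, each read from the probe set that carries its symbol alone and, where a gene had several, from the brightest. Of these 43 genes, 41 were measured among 18417 genes with such a probe set. GBP1 shares its probe set with GBP3 and a pseudogene, and STAT2 is not analysed here. The ZFX knock-down group held the hairpin ZFX-SH1 and the hairpin ZFX-SH3 on 1 array each, and the control group held a GFP lentivirus (LEN-GFP) and a scrambled hairpin (SCR) on 1 array each, both labelled ZFX wild type. Every culture carried a lentivirus, given at a multiplicity of infection of 1, was put through selection and was harvested 48 h later. No culture without virus is among the arrays, and the title LEN-GFP names no hairpin. No construct was measured more than once, so p-values reflect the spread between constructs and arrays together. Values are deposited intensities on a log2 scale, and a difference is the mean of both hairpin arrays minus the mean of both controls.

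Type I interferons bind the receptor chains IFNAR1 and IFNAR2, whose kinases JAK1 and TYK2 pass the signal on. The complex ISGF3, which holds IRF9, then binds the interferon-stimulated response element (ISRE) in the promoters of many genes, while interferon gamma acts mainly at the GAS element. The products block viral entry, translation and release, and some are also kept at a basal level in myeloid cells without added interferon.

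The promoters of 5 members are shown because they hold the ISRE core while the genes' readings ran in different ways: IFI6 and SAMD9 lay above the controls with both hairpins, ISG15 stayed level, IFITM3 was low with ZFX-SH3 and DTX3L lay slightly below. Each window runs from 250 bases before to 50 after the gene start in RefSeq (GRCh38.p14), on the gene's strand, and capitals mark the ISRE core, which is GAAA, any bases at 2 positions and GAAA again, on either strand. IFI6 is at chr1:27672143-27672442 (minus strand), SAMD9 at chr7:93117930-93118229 (minus), ISG15 at chr1:1013247-1013546 (plus), IFITM3 at chr11:320811-321110 (minus) and DTX3L at chr3:122564088-122564387 (plus).
IFI6: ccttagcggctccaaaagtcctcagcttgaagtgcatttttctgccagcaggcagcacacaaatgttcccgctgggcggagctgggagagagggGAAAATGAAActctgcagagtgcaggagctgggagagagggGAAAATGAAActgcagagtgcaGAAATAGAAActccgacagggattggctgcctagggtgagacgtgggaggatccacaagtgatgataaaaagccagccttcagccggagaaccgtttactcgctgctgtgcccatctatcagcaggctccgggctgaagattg
SAMD9: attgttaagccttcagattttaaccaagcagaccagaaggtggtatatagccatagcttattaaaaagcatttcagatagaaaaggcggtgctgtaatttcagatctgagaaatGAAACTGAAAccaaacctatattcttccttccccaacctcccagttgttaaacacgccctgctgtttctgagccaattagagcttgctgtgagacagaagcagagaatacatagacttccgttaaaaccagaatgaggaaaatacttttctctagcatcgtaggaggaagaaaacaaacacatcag
ISG15: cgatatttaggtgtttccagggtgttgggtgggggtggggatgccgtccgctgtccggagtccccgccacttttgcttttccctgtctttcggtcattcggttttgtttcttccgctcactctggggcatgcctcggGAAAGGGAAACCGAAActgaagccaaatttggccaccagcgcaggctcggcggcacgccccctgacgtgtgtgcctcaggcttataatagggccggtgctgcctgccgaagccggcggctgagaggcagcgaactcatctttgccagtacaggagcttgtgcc
IFITM3: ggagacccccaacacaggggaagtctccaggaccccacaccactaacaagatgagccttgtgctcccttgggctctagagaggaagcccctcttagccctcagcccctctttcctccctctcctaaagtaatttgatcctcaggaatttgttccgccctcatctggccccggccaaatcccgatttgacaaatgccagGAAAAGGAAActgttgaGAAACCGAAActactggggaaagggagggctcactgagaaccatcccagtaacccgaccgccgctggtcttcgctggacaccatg
DTX3L: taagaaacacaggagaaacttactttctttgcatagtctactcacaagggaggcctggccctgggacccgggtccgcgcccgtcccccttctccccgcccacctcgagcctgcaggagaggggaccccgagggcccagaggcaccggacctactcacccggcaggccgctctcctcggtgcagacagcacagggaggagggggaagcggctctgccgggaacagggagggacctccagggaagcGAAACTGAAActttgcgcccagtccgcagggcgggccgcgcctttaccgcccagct

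With positions counted from 0 at the gene start, IFI6 carried the core at -156, -115 and -93, and ISG15 carried overlapping copies at -113 and -107. IFITM3 held it at -52 and -35 and SAMD9 at -136. The copy of DTX3L, at -6, is at chr3:122564332-122564341 and lies also in a promoter window of PARP9, its divergent neighbour, where it starts at -41. RefSeq promoters matched 33 of the 41 measured members, and 23 of these (69.7%) held the core in at least 1 window, against 4.38% of all 27305 genes with a promoter. The GAS letters TTCNNNGAA, which read the same on both strands, were in 10 of the 33 (30.3%), against 9.38% of all genes. A match describes the letters only. Of the tested members with a matched promoter, 14 held the core. Among these 6 had a difference above 0 and the median difference was -0.08, and among the 9 without it, 7 had one and the median was 0.06. Members that lay higher and members that lay lower were thus found on both sides of this split. The tested members GBP2, TRIM22, IRF7, IFITM2 and MX2 had no matched promoter and are outside the split. Of these, GBP2 (0.58), TRIM22 (0.29) and IRF7 (0.24) lay above both controls, while IFITM2 (-0.07) and MX2 (-0.04) overlapped. The split thus holds 6 of the 9 members above both controls, and a link between the core and the differences was not tested. The core overlapped a GAS match in IFITM1, BST2, MX1, IFI27 and EPSTI1.

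ZFX, the targeted zinc finger transcription factor, read 10.13 on ZFX-SH1 and 10.12 on ZFX-SH3, against 10.65 on LEN-GFP and 10.66 on SCR. This is 69.3% of the control level (difference -0.53, SE 0.10, 2 against 2 arrays), with an adjusted p of 0.797 in limma over 12892 genes. Array medians ran from 184.8 to 189.8 on the linear scale. Of 8 measured markers of a monocytic leukaemia line (such as LYZ, CD68, SPI1 and ITGAM) 8 passed the filter on dim genes, and their summed intensity was 49473.9 on ZFX-SH1 and 44738.1 on ZFX-SH3, against 50280.2 on LEN-GFP and 49632.2 on SCR. CD33 is not analysed here, and CD14 read between 7.27 and 7.62. Of 5 measured T cell markers 4 were dim. Of 6 measured natural killer cell markers 2 were dim, and the 6 summed to 4814 on ZFX-SH1 and 4444 on ZFX-SH3, against 5537.7 on LEN-GFP and 5392.4 on SCR. Of the 4 tested natural killer cell markers, 2 lay below both controls, against 19.0% of all genes tested. Their median against the control mean was -0.13 on ZFX-SH1 and -0.21 on ZFX-SH3. The 5 measured markers of plasmacytoid dendritic cells, the main producers of type I interferon in blood, summed to 1174.5 and 1349.9 on ZFX-SH1 and ZFX-SH3, against 1072 on LEN-GFP and 1090.6 on SCR. The part of these cell markers in the results was not tested. In bulk RNA of this kind fewer expressing cells and less RNA per cell cannot be told apart.

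The median of the members lay near 0, and a larger share of them than of all genes tested lay above both controls. The share below both controls was near that of all genes tested. Of the 41 measured members, 28 passed the filter that left out the 30% of genes with the lowest mean, and 13 were dim (mean log2 under 6.70), where a low level cannot be told from none. In limma 0 of the 28 passed an adjusted p of 0.05, as did 0% of all 12892 genes tested. At an unadjusted p under 0.05 there were 4 members, each higher (IFI6, SAMD9, SAMD9L and IRF9), or 14.3% of the 28, where 2.78% of all genes tested were higher and 3.26% lower at that level. The median difference of the 28 was 0.02, beside -0.0029 for all genes tested, and 16 (57.1%, against 49.2% of all genes tested) were above 0 and 12 below. Both hairpin arrays lay above both controls for 9 members (32.1%, against 18.2% of all genes tested) and below both for 5 (17.9%, against 19.0%). With a difference of at least 0.3 as well, 5 members lay above (17.9%, against 4.71% of all genes) and 0 lay below (against 5.50%).

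**Figure D1:**
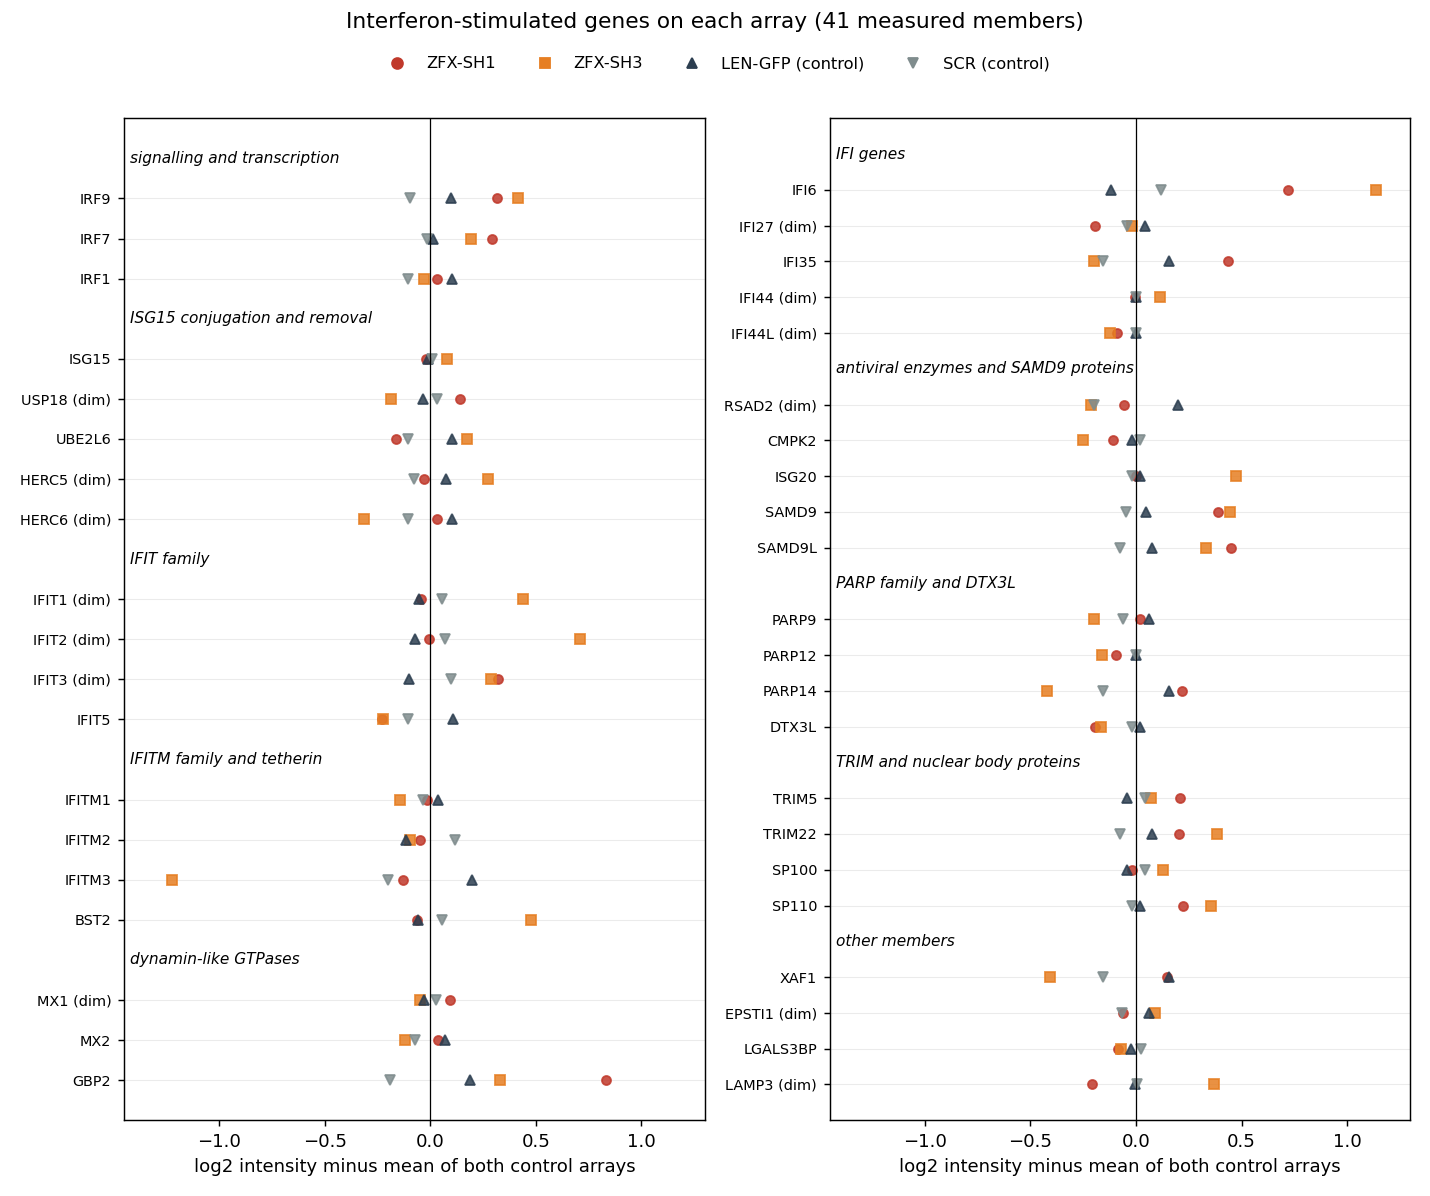
Log2 intensity of each of the 41 measured members on each array, as the distance from the mean of both control arrays (horizontal axis), grouped by role; circles are ZFX-SH1, squares ZFX-SH3, upward triangles LEN-GFP and downward triangles SCR, and members marked dim were not tested. IFI6, SAMD9, SAMD9L, GBP2 and IRF9 have both hairpin arrays to the right of both controls, and IFITM3 lies far to the left on ZFX-SH3 alone, at -1.22.

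**Figure D2:**
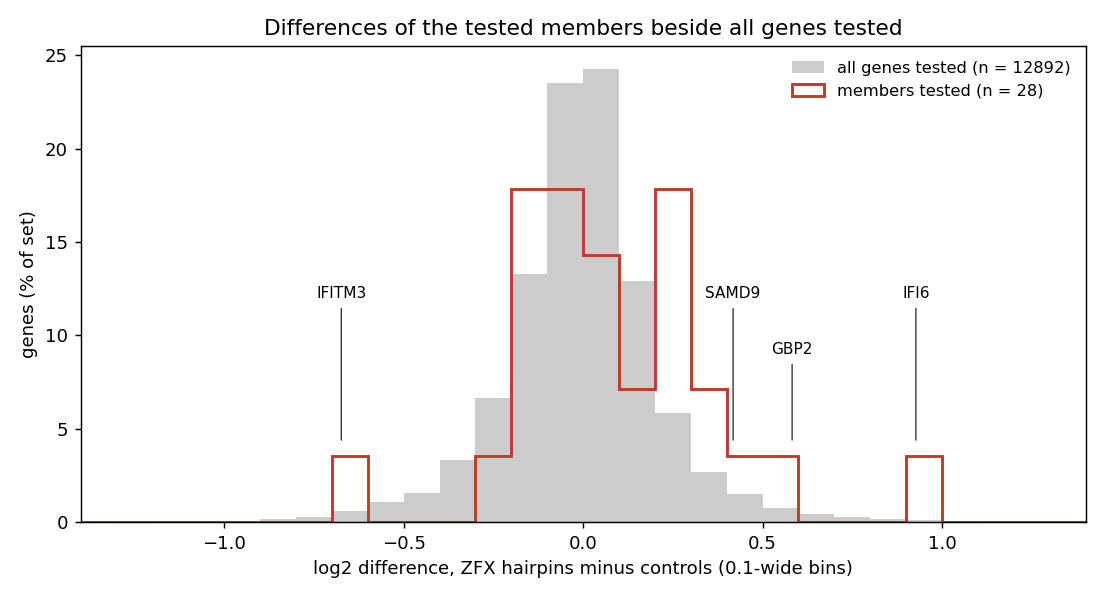
Share of genes (percent of each set, vertical axis) by log2 difference of hairpins minus controls (horizontal axis, bins 0.1 wide) for the 28 tested members (outline) and all 12892 genes tested (grey). IFI6 at 0.93 and IFITM3 at -0.67 are the outermost members.

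Among the factors that carry the signal, IRF9, the DNA-binding part of ISGF3, read 9.61 on ZFX-SH1 and 9.72 on ZFX-SH3, against 9.40 on LEN-GFP and 9.202 on SCR. Its arrays did not overlap, and the difference was 0.37 (SE 0.13, 1.29-fold), which did not pass in limma (adjusted p = 0.797). IRF7, which amplifies the type I response and is itself induced by it, read 8.41 and 8.31 on the hairpin arrays, against 8.13 and 8.11 on the controls, a difference of 0.24 (SE 0.11). The controls of IRF7 lay close together, at a distance of -0.03 for SCR minus LEN-GFP. IRF1, a factor mainly of the interferon gamma response, read 8.67 and 8.61 on ZFX-SH1 and ZFX-SH3, against 8.74 and 8.53 on LEN-GFP and SCR. Both hairpins lay between the controls, and the difference of 0.0029 had a 95% interval from -0.33 to 0.33.

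The ISG15 system attaches a ubiquitin-like protein to newly made proteins, and none of its 5 genes had separated groups. The 2 tested ones overlapped, as did 8095 of all 12892 genes tested, and the other 3 were dim. ISG15, the modifier itself, read 6.95 on ZFX-SH1 and 7.05 on ZFX-SH3, against 6.96 on LEN-GFP and 6.98 on SCR, so that the arrays overlapped within a narrow range and the interval of the difference was -0.17 to 0.23. UBE2L6, its conjugating enzyme, read 9.37 and 9.71 on the hairpin arrays, against 9.64 and 9.43 on the controls, and the hairpins lay outside the controls on opposite sides. The dim genes of the system were HERC5, the ligase, and USP18, the protease that removes ISG15 and dampens receptor signalling, with HERC6, a relative of HERC5. HERC5 read 5.57 and 5.87 on ZFX-SH1 and ZFX-SH3, against 5.67 and 5.52 on LEN-GFP and SCR. USP18 read 6.45 and 6.12 on the hairpin arrays, against 6.27 and 6.34 on the controls. HERC6 read 6.79 and 6.44 on the hairpin arrays, against 6.86 and 6.65 on the controls. For each of these 3 the hairpins lay on different sides of the control mean.

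The IFIT proteins bind foreign or unusual RNA ends and block translation, and 3 of the 4 genes were dim. IFIT1, which recognises caps that lack a methyl group, read 5.39 on ZFX-SH1 and 5.87 on ZFX-SH3, against 5.38 on LEN-GFP and 5.49 on SCR. IFIT2, its partner, read 5.69 and 6.41 on the hairpin arrays, against 5.63 and 5.77 on the controls. These both stood out on ZFX-SH3 alone, by 0.44 and 0.71 over the control mean, with ZFX-SH1 within 0.05 of it. IFIT3, which stabilises IFIT1, read 6.12 and 6.09 on the hairpin arrays, against 5.70 and 5.90 on the controls, and was the single dim member with both hairpins above both controls. IFIT5, which binds RNA with a free phosphate end, was the tested member of the family and lay on the other side, at 7.52 and 7.53 on ZFX-SH1 and ZFX-SH3, against 7.86 and 7.64 on LEN-GFP and SCR. Its difference was -0.23 (SE 0.11), and its promoter window held the ISRE core in 3 places.

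IFITM proteins sit in cell and endosome membranes and hinder the fusion of viruses, and the 3 neighbouring genes on chromosome 11 did not move alike. IFITM3, the endosomal form, read 8.85 on ZFX-SH1 and 7.76 on ZFX-SH3, against 9.18 on LEN-GFP and 8.78 on SCR. Only ZFX-SH3 lay outside the controls, and the difference of -0.67 (SE 0.38) came with a distance of -0.40 between the controls themselves. IFITM1, mostly at the cell surface, read 10.07 and 9.95 on the hairpin arrays, against 10.12 and 10.05 on the controls. IFITM2 read 10.58 and 10.54 on the hairpin arrays, against 10.52 and 10.75 on the controls. Both stayed within 0.15 of the control mean on each hairpin array, and since the family is alike in sequence, probes shared between its members were not tested for. BST2 (tetherin), which holds budding virions at the membrane, read 10.26 and 10.81 on ZFX-SH1 and ZFX-SH3, against 10.27 and 10.38 on LEN-GFP and SCR, high on ZFX-SH3 alone.

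The large GTPases held the member with the second widest difference on the higher side. GBP2, a guanylate-binding protein that attacks the vacuoles of intracellular pathogens, read 9.45 on ZFX-SH1 and 8.94 on ZFX-SH3, against 8.80 on LEN-GFP and 8.42 on SCR. The groups were separated by 0.14, and the difference of 0.58 (SE 0.23, 1.497-fold) did not pass in limma (adjusted p = 0.797). GBP2 is the sole member with more than 1 probe set, and the dimmer set gave 0.35, from 9.06 and 8.93 on the hairpin arrays, against 8.68 and 8.62 on the controls. MX2, which blocks the nuclear import of HIV, read 10.12 and 9.97 on ZFX-SH1 and ZFX-SH3, against 10.16 and 10.02 on LEN-GFP and SCR. MX1, its neighbour on chromosome 21 and a broad inhibitor of RNA viruses, was dim, with 6.16 and 6.02 on the hairpin arrays, against 6.04 and 6.09 on the controls. The arrays of MX1 and MX2 overlapped.

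IFI6, a small membrane protein of the endoplasmic reticulum and mitochondria with antiviral and anti-apoptotic roles, had the widest difference of the members. It read 10.16 on ZFX-SH1 and 10.58 on ZFX-SH3, against 9.32 on LEN-GFP and 9.56 on SCR. The nearest hairpin and control arrays were 0.60 apart, and the difference was 0.93 (SE 0.19, 1.90-fold, 95% interval 0.44 to 1.41), with an adjusted p of 0.797 in limma. IFI35, a cytoplasmic partner of NMI, read 10.17 and 9.54 on the hairpin arrays, against 9.89 and 9.58 on the controls, high on ZFX-SH1 and slightly under both controls on ZFX-SH3. The remaining IFI genes were dim. IFI27, a mitochondrial relative of IFI6, read 6.33 and 6.50 on ZFX-SH1 and ZFX-SH3, against 6.57 and 6.48 on LEN-GFP and SCR. IFI44 read 5.22 and 5.34 on the hairpin arrays, against 5.22 and 5.23 on the controls. Its neighbour IFI44L read 5.31 and 5.27 on the hairpin arrays, against 5.40 and 5.39 on the controls, a separation of -0.09 at a level where dim genes are compressed. IFI6 thus stood apart from the rest of its group, which stayed within 0.45 of the control mean on every hairpin array.

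SAMD9 and SAMD9L, neighbouring genes on chromosome 7 whose products restrain translation and the growth of myeloid cells, lay above the controls side by side. SAMD9 read 11.35 on ZFX-SH1 and 11.40 on ZFX-SH3, against 11.003 on LEN-GFP and 10.91 on SCR, a difference of 0.42 (SE 0.10, 1.34-fold, 95% interval 0.16 to 0.67). SAMD9L read 12.09 and 11.98 on the hairpin arrays, against 11.72 and 11.57 on the controls, a difference of 0.39 (SE 0.10, 1.31-fold, 95% interval 0.13 to 0.66). The hairpins of both genes were within 0.15 of each other, and neither gene passed in limma (adjusted p = 0.797 for each). The antiviral enzymes did not show this pattern. CMPK2, a mitochondrial nucleotide kinase, read 8.59 and 8.45 on ZFX-SH1 and ZFX-SH3, against 8.68 and 8.72 on LEN-GFP and SCR, below both controls by a difference of -0.18 (SE 0.12). RSAD2 (viperin), its neighbour on chromosome 2, which makes a chain-terminating form of the nucleotide CTP, was dim, with 6.67 and 6.51 on the hairpin arrays, against 6.92 and 6.53 on the controls. ISG20, an exonuclease that degrades viral RNA, read 7.53 and 8.001 on the hairpin arrays, against 7.55 and 7.51 on the controls, with ZFX-SH1 at the control level and ZFX-SH3 high.

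**Figure D3:**
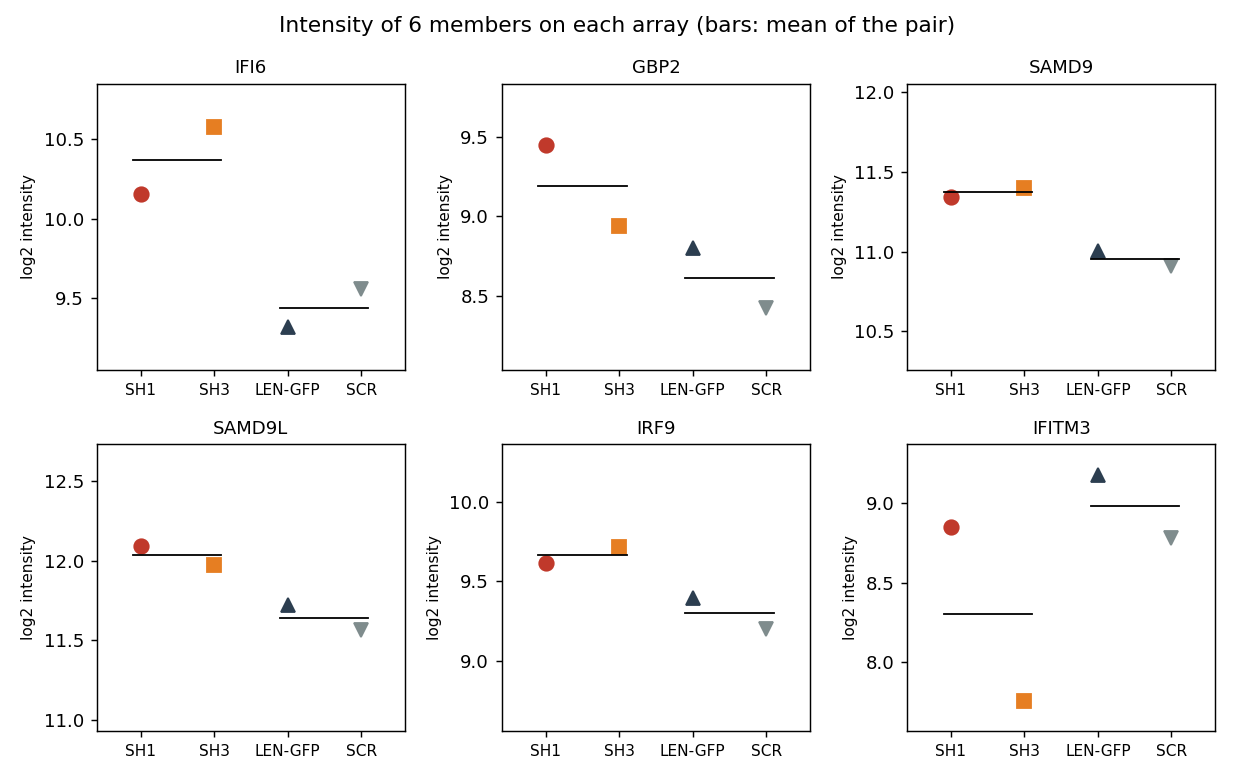
Log2 intensity (vertical axis, the same span in each panel) of IFI6, GBP2, SAMD9, SAMD9L, IRF9 and IFITM3 on ZFX-SH1, ZFX-SH3, LEN-GFP and SCR, with bars at the mean of each pair. The hairpin arrays lie above both controls in the first 5 panels, while IFITM3 at 7.76 on ZFX-SH3 lies far below the other arrays.

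PARP proteins add ADP-ribose to other proteins, and PARP9 with DTX3L forms a ubiquitin ligase complex. The difference was below 0 in 4 of 4 genes of this group, and in 6544 of all 12892 genes tested. On ZFX-SH1, PARP9 (0.02) and PARP14 (0.22) lay above the control mean, while on ZFX-SH3 all 4 lay below it. DTX3L read 9.88 on ZFX-SH1 and 9.91 on ZFX-SH3, against 10.10 on LEN-GFP and 10.06 on SCR, a difference of -0.18 (SE 0.11) with no overlap. PARP9, its partner, shares the divergent promoter shown above and read 7.93 and 7.71 on the hairpin arrays, against 7.97 and 7.85 on the controls, a difference of -0.09 with overlap. PARP14, near them on chromosome 3, read 9.41 and 8.77 on ZFX-SH1 and ZFX-SH3, against 9.35 and 9.03 on LEN-GFP and SCR, high with one hairpin and low with the other. PARP12, which adds single ADP-ribose units, read 8.55 and 8.49 on the hairpin arrays, against 8.64 and 8.65 on the controls, a difference of -0.13 (SE 0.11) with no overlap. None of these 4 differences was larger than 0.20, and none passed in limma.

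The TRIM and nuclear body genes had a difference above 0 in 4 of 4 (against 49.2% of all genes tested). On ZFX-SH3 4 of the 4 lay above the control mean, and on ZFX-SH1 3 did, with SP100 at -0.02. SP110, a nuclear body protein whose mouse relative is linked to resistance to mycobacteria, read 10.16 on ZFX-SH1 and 10.29 on ZFX-SH3, against 9.95 on LEN-GFP and 9.92 on SCR. TRIM22, a ubiquitin ligase with activity against several viruses, read 11.09 and 11.27 on the hairpin arrays, against 10.96 and 10.81 on the controls. Both had no overlap and a difference of 0.29 (SE 0.12 each), unadjusted p 0.0534 for SP110 and 0.0588 for TRIM22 in limma. TRIM5, which recognises retroviral capsids, read 10.31 and 10.17 on ZFX-SH1 and ZFX-SH3, against 10.06 and 10.14 on LEN-GFP and SCR, with a gap of 0.03 between the nearest arrays. SP100, a core component of PML bodies, read 11.12 and 11.27 on the hairpin arrays, against 11.10 and 11.18 on the controls, and overlapped.

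Of the last 4 members, XAF1, an antagonist of the apoptosis inhibitor XIAP, read 11.45 on ZFX-SH1 and 10.90 on ZFX-SH3, against 11.46 on LEN-GFP and 11.14 on SCR, low on ZFX-SH3 alone. LGALS3BP, a secreted glycoprotein that binds galectins, read 6.80 and 6.81 on the hairpin arrays, against 6.86 and 6.91 on the controls, a separation of -0.05. EPSTI1 was dim, at 5.85 and 6.003 on ZFX-SH1 and ZFX-SH3, against 5.98 and 5.85 on LEN-GFP and SCR. LAMP3, a lysosomal membrane protein of mature dendritic cells, was also dim, at 6.39 and 6.97 on the hairpin arrays, against 6.59 and 6.60 on the controls, with the hairpins on opposite sides. Over the 13 dim members the differences ran from -0.14 to 0.35, and the groups overlapped in 11. The groups overlapped in 8095 of all 12892 genes tested, and no such share was taken over dim genes, so the 11 are a description only.

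Each hairpin was also set alone against both controls, with the lone array assumed to vary like the control pair. These fits share the controls, so their values are given side by side and not as support of each other. For ZFX-SH1 limma called 0 of the 28 members, where 0.171% of all genes tested were called higher and 0.248% lower, and 5 of the 28 had an unadjusted p under 0.05, against 10.1% of all genes tested. The smallest adjusted p was 0.0939, for IFI6. For ZFX-SH3 it called 4 members higher (14.3%, against 6.27% of all genes) and 1 lower (3.57%, against 6.90%), and 11 of the 28 had an unadjusted p under 0.05, against 26.2% of all genes tested. IFI6 rose by 1.14 (2.20-fold, SE 0.15, adjusted p = 0.0018 in limma), with 0.72 on ZFX-SH1. BST2 rose by 0.48 (1.39-fold, SE 0.12, limma adjusted p = 0.0328), with -0.06 on ZFX-SH1. ISG20 rose by 0.47 (1.39-fold, SE 0.13, limma adjusted p = 0.0486), with 0.000817 on ZFX-SH1, and SAMD9 by 0.45 (1.36-fold, SE 0.11, limma adjusted p = 0.0291), with 0.39 on ZFX-SH1. IFITM3 fell by 1.22 on the log2 scale (0.429-fold, SE 0.18, adjusted p = 0.0039 in limma), with -0.13 on ZFX-SH1. Differences between the hairpins themselves were not tested. The calls of IFI6 and IFITM3 held when each array was centred on its median, while BST2, ISG20 and SAMD9 then had adjusted p of 0.0539, 0.0611 and 0.0539. With no filter on dim genes IFIT1 and IFIT2 were called higher with ZFX-SH3 (limma adjusted p = 0.0119 and 0.0043), and BST2 and ISG20 were not (0.0542 and 0.0788). On the same array the myeloid granule enzyme MPO was at -1.02 and the plasmacytoid marker CLEC4C at 0.90 against the control mean. MPO is among the 8 tested markers of a monocytic leukaemia line, of which 5 were above the control mean on ZFX-SH3 (median 0.08). Of the 5 tested plasmacytoid markers 4 were above it (median 0.31). The part of these markers in the values of the members was not tested.

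The controls differed from each other on several members, with SCR below LEN-GFP for 19 of the 28 (against 58.6% of all genes tested). SCR minus LEN-GFP ran from -0.40 (IFITM3) to 0.24 (IFI6), with a median of -0.08, beside -0.03 for all genes tested. The difference between the groups was larger than this distance between the controls for 19 of the 28 members (against 51.3% of all genes tested). For IFI6 the higher control was SCR, while for GBP2 and IRF9 it was LEN-GFP.

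The rest of the pathway was read from lists chosen by name. The 4 measured genes of the OAS family, whose active enzymes make the activator of RNase L while OASL is inactive as a synthetase, had both hairpins above both controls in 4 of 4 (against 18.2% of all genes tested), with a median of 0.49. OAS1 read 9.91 on ZFX-SH1 and 9.501 on ZFX-SH3, against 8.49 on LEN-GFP and 8.27 on SCR. OAS2 differed by 0.52 (SE 0.16), OAS3 by 0.46 (SE 0.11) and OASL by 0.32 (SE 0.12). Of 48 tested genes among the other interferon-stimulated genes 32 were above 0 (66.7%, against 49.2% of all genes tested; median 0.06), 14 had both hairpins above both controls (29.2%, against 18.2%) and 4 below (8.33%, against 19.0%). The leading ones were AIM2, a sensor of cytoplasmic DNA, at 0.74 (SE 0.32), the proteasome subunit PSMB9 at 0.72 (SE 0.18), the peptide transporter chains TAP1 at 0.65 (SE 0.27) and TAP2 at 0.46 (SE 0.14), the chemokine CXCL10 at 0.64 (SE 0.27), and the RNA sensor IFIH1 at 0.49 (SE 0.21). In limma 0 genes of either list passed between the groups, while 4 of 4 OAS genes and 3 of the 48 others were at an unadjusted p under 0.05, against 6.04% of all genes tested, so that the share of the others was near the background.

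Upstream of the members, 13 of 16 measured interferon genes were dim, and the tested ones, IFNL1, IFNL2 and IFNL3, had differences between -0.03 and 0.02. IFNB1, the first type I interferon made after virus sensing, read 5.19 on ZFX-SH1 and 5.27 on ZFX-SH3, against 5.14 on LEN-GFP and 5.21 on SCR. Receptor and kinase genes lay mostly on the higher side, 7 of 9 above 0 (against 49.2% of all genes tested) with a median of 0.22, and 5 of 9 had both hairpins above both controls (against 18.2%). Of 8 negative regulators such as SOCS1 and PTPN2, 7 were above 0 (median 0.10), and of the other interferon regulatory factors 4 of 4 were (median 0.12). Both hairpins lay above both controls for 4 of the 8 negative regulators and 1 of the 4 other factors (against 18.2% of all genes tested). In each of these lists 0 genes passed in limma between the groups, and no gene reached a difference of 0.40. An unadjusted p under 0.05 in limma was found for 1 of 9 receptor or kinase genes and 1 of 8 negative regulators. It was found for 0 of 4 other regulatory factors and 0 of 3 tested interferon genes, against 6.04% of all genes tested.

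**Figure D4:**
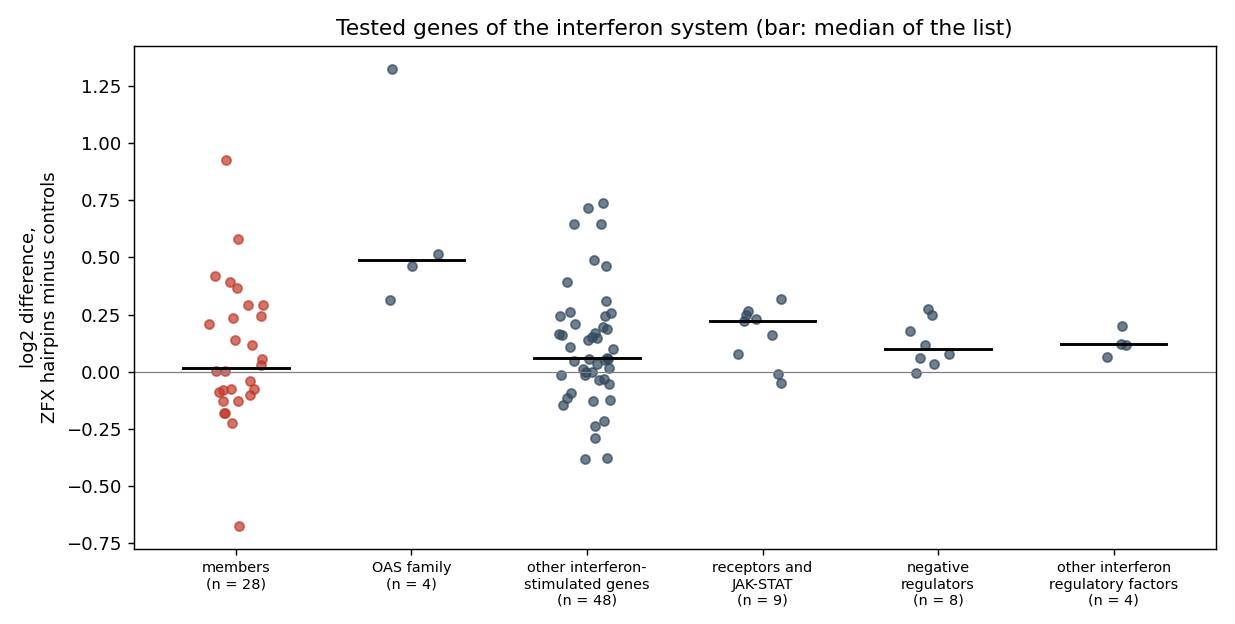
Log2 difference of hairpins minus controls (vertical axis) for each tested gene of the members and of 5 related lists, with a bar at each list's median. The members spread from -0.67 to 0.93 around a median of 0.02, and the 4 OAS genes lie between 0.32 and 1.32.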

How the data were processed

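RNA of 4 cultures was taken with Trizol, and 200 ng was biotin-labelled with an Ambion WT kit, per the labels' protocols. The authors deposited 1 table of linear intensities for 33297 probe sets on 4 arrays. Affymetrix Expression Console 1.1 and RMA are named in the submitters' processing notes, with no role or order, and how they were brought to a linear scale is not stated there. RMA usually includes a quantile step, which hides changes in total RNA, and it compresses differences of dim genes. No value marks detection, and the number of arrays limits the precision.

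The log2 of each intensity was used without an offset. The platform annotation gave 19460 probe sets 1 symbol, 1754 several and 12083 none (not named here). The brightest probe set stood for each of 18417 genes, and the 30% with the lowest mean were left out, leaving 12892. The contrast was fitted with limma 3.58.1 under R 4.3.3 (lmFit, eBayes with trend, 2 residual and 2.95 prior degrees of freedom), two-sided, with Benjamini-Hochberg adjustment over all genes tested at 0.05. Fits of 1 hairpin array used both controls for the spread, with 1 residual degree of freedom. The fit was checked on 20 simulated sets in which 200 genes were changed by 2 on the log2 scale. On average 166.5 of these were called, with 5.3 false calls. That change is wider than the difference of any member, so the check does not bear on differences of the sizes given here. Replicate numbers follow accession order and pair no arrays.

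The members and lists were chosen with earlier results of these data known. Every measured member is named; fold and SE are given for members past 0.3 without overlap and for those called with 1 hairpin, and for others where the text turns on them. From related lists up to 6 genes past 0.4 are named, and the OAS genes. The alternatives were other filters, probe set rules, normalizations, an offset of 16, other variance models and leaving out each array.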

Additional observations from a re-analysis of the deposited data

How the results depend on the processing

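No member was called between the groups in the 8 alternatives that kept the 4 arrays. The smallest adjusted p among members in these was 0.759 (limma). The sign of the difference held for 28 of 28 tested members wherever they were fitted. Filters and variance models leave a difference as it is, so only the normalizations, the offset and, for GBP2, the probe set rule could move a sign. ISG15, IFIT5, ISG20, PARP9 and LGALS3BP were not fitted with the lowest 50% of genes left out. With each array left out in turn, genes called ranged from 0 (without either control) to 1698 (without ZFX-SH1), with 54 without ZFX-SH3. Members called ranged from 0 to 5, the 5 without ZFX-SH1. ZFX stayed between -0.54 and -0.52 and passed without ZFX-SH1 (adjusted p = 0.0181 in limma). The median of the members ranged from -0.00028 without SCR to 0.074 without LEN-GFP. Members with hairpins above the controls numbered 11 to 14, and below them 6 to 12, where fewer arrays make separation easier by construction. The count below was 3 with the lowest 50% of genes left out, where fewer members are tested. Without 1 array, 17 of 28 members kept their sign, and the others crossed 0: IRF1 ranged from -0.10 to 0.11, ISG15 from -0.020 to 0.082, UBE2L6 from -0.16 to 0.17, IFITM2 from -0.19 to 0.043, BST2 from -0.064 to 0.48, MX2 from -0.12 to 0.036, IFI35 from -0.20 to 0.43, PARP9 from -0.20 to 0.018, PARP14 from -0.42 to 0.22, SP100 from -0.018 to 0.13 and XAF1 from -0.40 to 0.15. IFI6 ranged from 0.72 to 1.14, and GBP2 from 0.33 to 0.83, with 0.47 as the mean of its probe sets. For ZFX-SH1 alone quantile normalization called 2 members (IFI6 and GBP2). For ZFX-SH3 alone fewer members were called with each array centred on its median and without the intensity trend. With quantile normalization TRIM22 (0.38 on ZFX-SH3) was added to those called. The cause of these shifts was not tested. No paired analysis was possible because the labels give the arrays no shared replicate numbers. With 2 arrays a group, of different constructs, and no detection values, differences of dim genes and of single hairpins are the least certain.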
